A study of Mus musculus with 15 samples.

Results

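The 9 genes described here are Pparg, Cd36, Plin2, Fabp4, Fabp5, Lpl, Angptl4, Cpt1a and Acsl1, taken by symbol from the 25700 genes of the count table. They are the gene of the nuclear receptor PPAR-gamma and 8 genes that take up, carry, activate, store or burn fatty acids, and all 9 passed the filter on low counts. They were measured by RNA sequencing in mouse bone marrow-derived macrophages. Marrow came from the leg bones of mice aged 8 to 10 weeks, and its cells were grown for 7 days in 10 ng/ml M-CSF, the growth factor that drives marrow cells to become macrophages. There were 5 groups of 3 libraries: untreated cells, cells given 200 µM or 400 µM heme-albumin (hemin bound to human serum albumin), cells given 10 ng/ml IL-4, and cells given 10 ng/ml IFN-γ. IL-4 and IFN-γ stand for the M2 and M1 states of macrophage activation. All 5 groups share the M-CSF culture and no genetic change is labelled in any group. The labels give neither the strain nor the time under treatment. They do not say whether replicates came from separate mice, so the p-values measure the spread between these libraries, which may be technical.

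PPAR-gamma binds DNA together with a retinoid X receptor and is switched on by fatty acids and their oxidation products. In macrophages it is known for controlling lipid uptake and handling, and IL-4 is known to induce it during alternative activation. Lipoprotein lipase releases fatty acids from triglycerides, CD36 and fatty acid-binding proteins carry them, acyl-CoA synthetases activate them, perilipin 2 coats the droplets that store them, and carnitine palmitoyltransferase 1 lets them into mitochondria for oxidation.

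The promoter table held windows for 5 of the 9 genes, and 8 windows in all, taken from RefSeq on GRCm38.p6. The 250 bases before a RefSeq start site are shown for Pparg, the receptor gene, and for Cd36, Plin2 and Cpt1a, which rose together under heme-albumin. Capitals mark the only letters among these 4 windows that matched any of the motifs given here, an antioxidant response element core on the minus strand of the Pparg window at chr6:115361108-115361116. The windows lie at chr6:115360894-115361143 (plus strand) for Pparg, chr5:17835897-17836146 (minus) for Cd36, chr4:86670060-86670309 (minus) for Plin2 and chr19:3323051-3323300 (plus) for Cpt1a. The Cd36 and Cpt1a windows lie inside the annotated genes, before inner start sites. The Pparg window begins before the annotated start of the gene (chr6:115360951) and runs into it. The marked match thus lies inside the annotated gene. Which start sites these cells used was not tested.
Pparg: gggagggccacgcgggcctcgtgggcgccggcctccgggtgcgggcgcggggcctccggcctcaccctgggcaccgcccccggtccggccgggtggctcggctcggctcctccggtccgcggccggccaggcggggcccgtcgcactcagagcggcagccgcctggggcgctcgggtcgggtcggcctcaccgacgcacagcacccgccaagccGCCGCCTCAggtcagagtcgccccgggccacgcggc
Cd36: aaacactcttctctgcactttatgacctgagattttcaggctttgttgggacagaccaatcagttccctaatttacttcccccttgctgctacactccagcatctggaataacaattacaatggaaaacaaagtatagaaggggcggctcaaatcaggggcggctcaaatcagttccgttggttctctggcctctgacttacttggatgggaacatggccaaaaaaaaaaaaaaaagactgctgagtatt
Plin2: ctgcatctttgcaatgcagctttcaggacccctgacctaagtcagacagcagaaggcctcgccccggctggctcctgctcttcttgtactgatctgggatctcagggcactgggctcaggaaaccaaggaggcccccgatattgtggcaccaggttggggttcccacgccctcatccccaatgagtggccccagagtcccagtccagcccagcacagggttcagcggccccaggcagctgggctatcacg
Cpt1a: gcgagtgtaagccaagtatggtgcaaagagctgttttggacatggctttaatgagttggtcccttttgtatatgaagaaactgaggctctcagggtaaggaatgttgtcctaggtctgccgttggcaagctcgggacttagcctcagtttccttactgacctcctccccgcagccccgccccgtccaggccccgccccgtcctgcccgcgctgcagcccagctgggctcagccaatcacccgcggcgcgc
Both strands were searched for each motif given here. The direct repeat bound by PPAR and retinoid X receptors (AGGNCA, any 1 base, then AGGNCA again) was in none of the 8 windows and in 0.338% of 32851 promoter windows of that length. The STAT6 motif (TTC and GAA with any 4 bases between, in 5.854% of all windows) was also in none of the 8. The antioxidant response element core (TGANNNNGC) was in 35.198% of all windows, in 3 of 3 Pparg windows and in 1 of 2 Acsl1 windows. A match describes the letters in the window and nothing more.

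The libraries held 8427352 to 28587416 counts each. Hmox1, the heme-degrading enzyme, rose at both heme-albumin doses (log2 fold changes 4.93 ± 0.30 and 4.76 ± 0.29, SE). Arg1 rose under IL-4 (11.37 ± 0.61) and Irf1 under IFN-γ (4.76 ± 0.15). In edgeR's quasi-likelihood test these 4 changes had adjusted p-values of 3.25e-07, 3.90e-07, 6.77e-08 and 2.67e-10. The 9 macrophage markers summed to 36980 to 41670 CPM (counts scaled to the total of the library) in controls, 42050 to 53350 under heme-albumin, 15080 to 21010 under IL-4 and 13330 to 23660 under IFN-γ. Of 8 adipocyte markers, Lep, Cidec and Cfd were at 0 in all 15 libraries, and the 8 summed to at most 0.144 CPM outside the IL-4 group and to 0.272 to 0.878 CPM within it. Stromal markers stayed at or under 1.58 CPM. Endothelial markers, with Gpihbp1 at 0, summed to 16.3 to 25.8 CPM in controls and to 7.13 to 12.0 CPM under heme-albumin. Of 7 osteoclast markers, Calcr was at 0, and the 7 summed to 19.7 to 36.4 CPM in controls, 120.5 to 215.5 under IL-4 and 41.5 to 242.7 under IFN-γ. Ocstamp and Acp5 rose under IFN-γ (11.40 ± 1.22 and 2.04 ± 0.46, adjusted p = 9.31e-06 and 0.00319 in edgeR's test). Mmp9 and Dcstamp fell there (-3.18 ± 0.82 and -1.77 ± 0.57, adjusted p = 0.00719 and 0.0232), and Ctsk did not pass (-0.58 ± 0.82, 0.590). The 7 dendritic cell markers summed to 0.525 to 1.54 CPM in controls, 2.77 to 5.53 under IL-4 and 23.9 to 59.8 under IFN-γ. The tested genes of this list did not move together under IFN-γ. Clec9a rose (log2 fold change 10.23, adjusted p = 3.23e-07 in edgeR's test). Cd209a fell there (-3.39, adjusted p = 0.0356), and Zbtb46 did not pass (-0.06, 0.952). The 8 neutrophil markers ranged from 2.23 to 50.9 CPM with overlap between all groups. The part of these other cell types in the results was not tested. Heme-albumin 400 µM replicate 2 and IFN-γ replicate 3 stood apart from their groups, and results that rest on them are given with and without them. In cultures measured whole, fewer cells of a type and less RNA per cell cannot be told apart.

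Per length of transcript, the 9 genes covered a wide range in untreated macrophages. On the RPKM scale, which divides CPM by exon length, Lpl (405 ± 36, SD, n = 3) and Cd36 (318 ± 19) were highest, followed by Plin2 (203.2 ± 5.6) and Fabp5 (145 ± 16). Cpt1a stood at 13.96 ± 0.18, Fabp4 at 7.4 ± 1.5, Acsl1 at 6.26 ± 0.22 and Pparg at 4.9 ± 1.0. Angptl4 was lowest at 0.536 ± 0.071. Across the 5 groups, the highest mean CPM was 2.10 times the lowest for Cpt1a, 2.68 for Lpl, 3.01 for Plin2, 4.15 for Cd36, 4.18 for Fabp4, 4.54 for Fabp5, 6.05 for Pparg, 14.6 for Angptl4 and 15.8 for Acsl1. Without both libraries that stood apart it was 13.4 for Fabp4, 10.8 for Angptl4 and 5.99 for Acsl1, and between 2.18 and 6.05 for the other 6.

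The order of the groups by mean CPM differed from gene to gene. For Lpl it ran from 400 µM heme-albumin through 200 µM, IFN-γ and control to IL-4, and only control and IL-4 overlapped. Plin2 followed the order 400 µM, 200 µM, IL-4, control, IFN-γ, where only the last pair overlapped. For Angptl4 the order was 400 µM, 200 µM, control, IL-4, IFN-γ, with overlap between the doses and between control and IL-4. For Cpt1a it was 400 µM, 200 µM, IL-4, IFN-γ, control, with overlap between the doses and between the cytokines. Cd36 ran 400 µM, IL-4, 200 µM, IFN-γ, control, and every neighbouring pair overlapped except the last. Pparg ran IL-4, 400 µM, IFN-γ, control, 200 µM, and every neighbouring pair overlapped except the first. Fabp4 ran IL-4, control, 400 µM, IFN-γ, 200 µM, with the same exception. Fabp5 ran IL-4, control, IFN-γ, 400 µM, 200 µM, with overlap only between IFN-γ and 400 µM. Acsl1 ran IFN-γ, control, 400 µM, 200 µM, IL-4, with overlap only between the last pair. With TMM-scaled CPM, however, 400 µM stood above control for Acsl1 (63.0 ± 0.6 and 59.5 ± 2.1 CPM, SD). Without both libraries that stood apart, IFN-γ moved to the last place for Fabp4 and Fabp5 and above 400 µM for Pparg, and the order of the other 6 genes was as given.

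**Figure D1:**
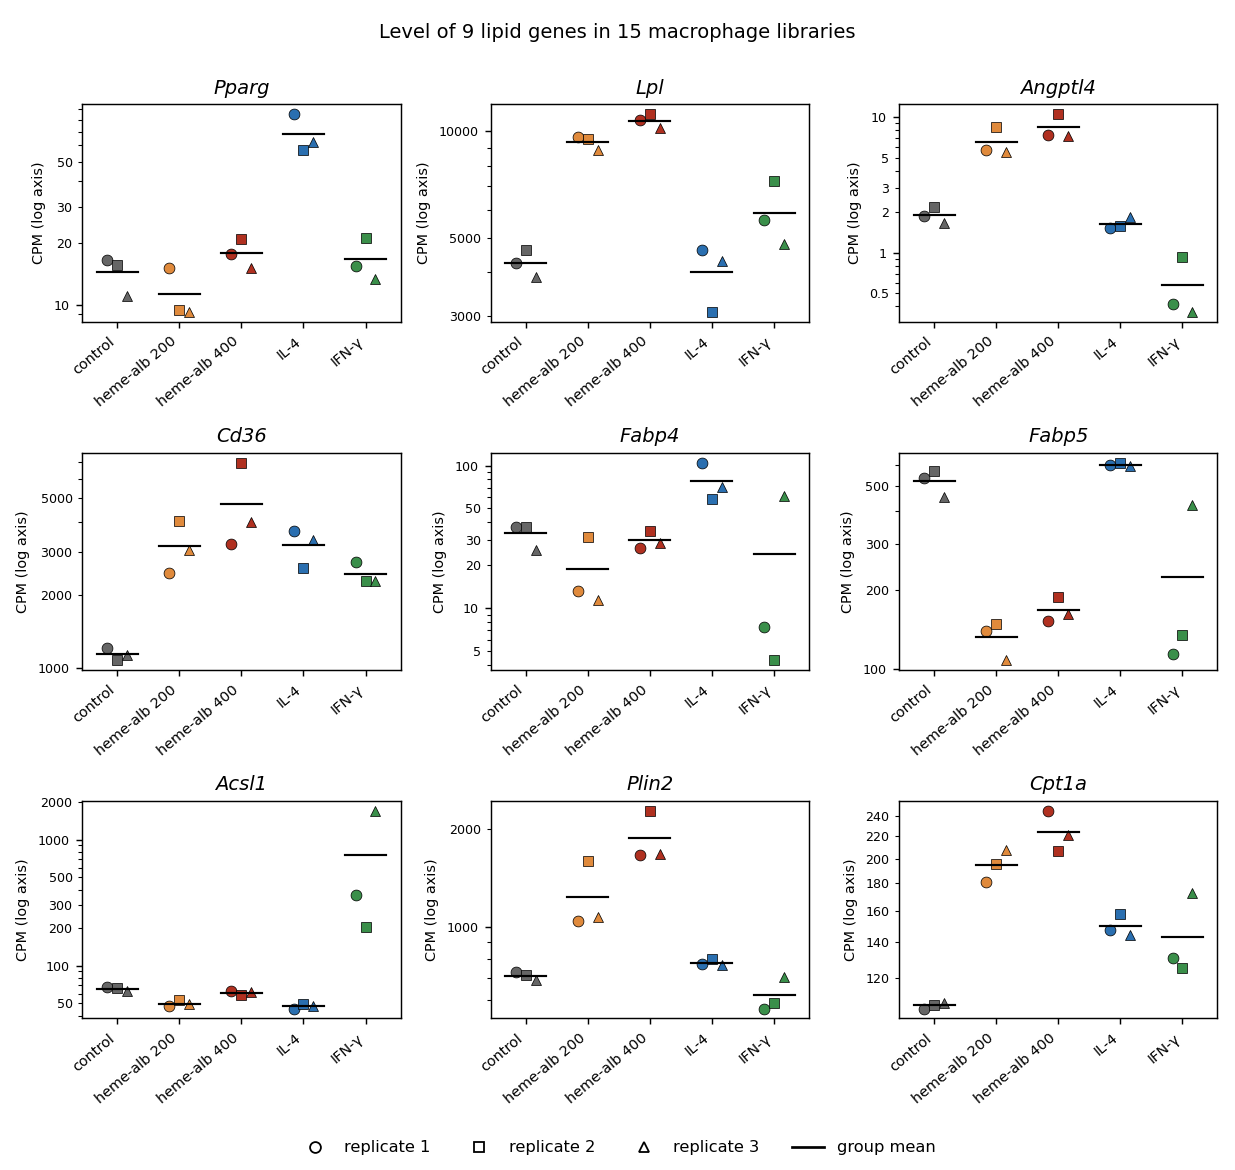
Level of each of the 9 genes in CPM (log axis) in 5 groups of macrophages; each point is 1 library, its shape gives the replicate number, and the black line is the group mean. Pparg sat between 56.9 and 85.0 CPM under IL-4 and at or below 21.2 CPM elsewhere, while the 3 IFN-γ libraries spread widely for Fabp4, Fabp5 and Acsl1.

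Heme-albumin raised 5 of the 9 genes at both doses and lowered 1, Fabp5, without a change in Pparg that passed the test. At 200 µM, 14.0% of all 11883 genes tested rose and 9.48% fell, 23.4% in all. At 400 µM, 14.7% rose and 10.8% fell, 25.4% in all. IL-4 raised 3 of the 9 (Pparg, Cd36 and Cpt1a) and lowered none, beside 14.9% and 12.0% of all genes, 26.8% together. DESeq2 also called 0 of the 9 lower under IL-4, and 0 were lower at an unadjusted p under 0.05. In edgeR with only the 6 libraries compared, 6 were higher and 1 was lower under IL-4, the last being Acsl1 (-0.37 ± 0.07, adjusted p = 0.00222). IFN-γ raised 4 (Acsl1, Cd36, Cpt1a and Lpl) and lowered 1 (Angptl4), beside 24.1% and 19.5% of all genes, 43.7% together. The median log2 fold change of the 9 was 1.01 at 200 µM, 1.27 at 400 µM, 0.32 under IL-4 and 0.38 under IFN-γ, where the median of all genes tested was at most 0.05 from 0. Cd36 and Cpt1a rose in all 4 comparisons, and the share of all genes that did so is not given here. The 4 comparisons share the same 3 control libraries. Fold changes are on a log2 scale from edgeR with TMM scaling, each with its standard error, and p-values are adjusted over all genes tested by Benjamini-Hochberg with a threshold of 0.05. Plain CPM without that scaling shifted the median of all genes against control by -0.17, -0.18, -0.11 and -0.13 in the 4 comparisons, so levels in CPM understate treated cells by about that much.

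**Figure D2:**
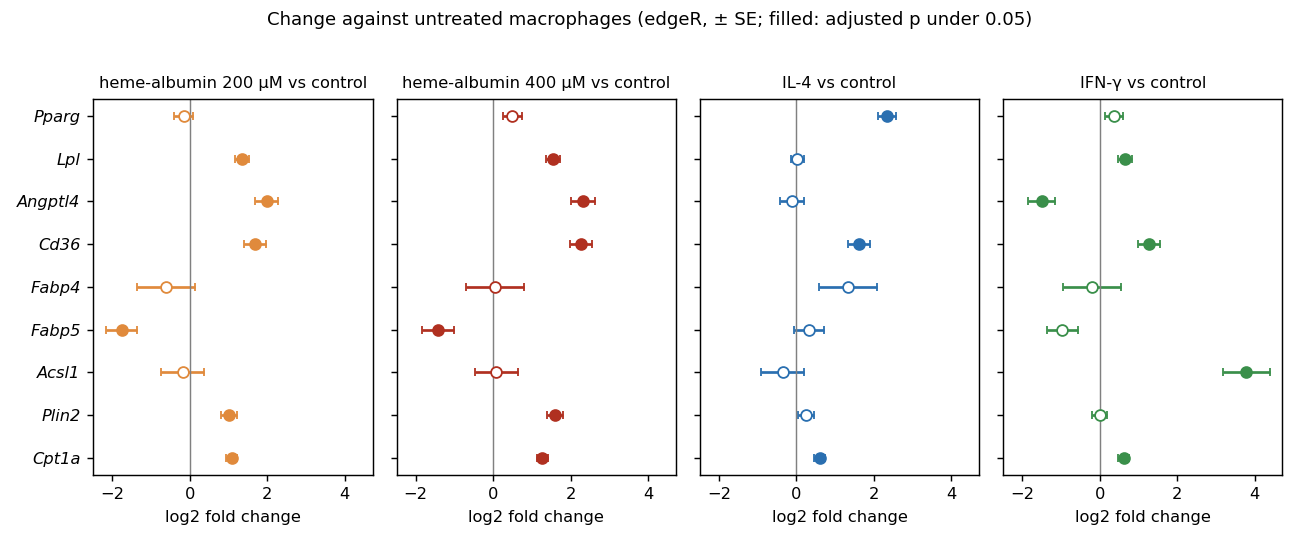
Log2 fold change against untreated macrophages (horizontal axis) for the 9 genes (rows) in 4 comparisons, edgeR estimate ± SE from 3 libraries a group; filled points have an adjusted p under 0.05. Lpl, Angptl4, Cd36, Plin2 and Cpt1a are filled and to the right at both heme-albumin doses, whereas Pparg is filled only under IL-4 and Acsl1 only under IFN-γ.

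Pparg, the receptor gene itself (chr6:115360951-115490399, plus strand), passed the test only under IL-4, where it rose. Its level in CPM was 16.6, 15.7 and 11.04 in the 3 control libraries and 85.0, 56.9 and 62.5 under IL-4. It was 15.1, 9.45 and 9.27 at 200 µM heme-albumin, 17.8, 20.9 and 15.1 at 400 µM, and 15.4, 21.2 and 13.4 under IFN-γ. The IL-4 libraries all lay above the other 12, and each of the other 3 treated groups overlapped the controls. The log2 fold change was 2.34 ± 0.24 for IL-4 (adjusted p = 9.43e-06). It was -0.16 ± 0.24 at 200 µM (adjusted p = 0.660), 0.50 ± 0.24 at 400 µM (0.142) and 0.38 ± 0.23 for IFN-γ (0.200). In direct comparison, Pparg was lower at 400 µM heme-albumin than under IL-4 (-1.84 ± 0.23, adjusted p = 3.76e-05) and higher under IL-4 than under IFN-γ (1.96 ± 0.23, 1.09e-05). An antisense gene, Gm44079, lies within an intron of Pparg.

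Lpl encodes lipoprotein lipase, the secreted enzyme that splits triglycerides of lipoproteins (chr8:68880491-68907448, plus strand). It was measured at 4234, 4623 and 3871 CPM in controls. It stood at 9619, 9544 and 8851 CPM at 200 µM heme-albumin and at 10757, 11180.0 and 10203 CPM at 400 µM. The lowest heme-albumin library was thus above every control, and the 2 doses did not overlap. Lpl stood at 4614, 3079.5 and 4291.5 CPM under IL-4, which overlapped the controls, and at 5623, 7223 and 4804.5 CPM under IFN-γ, which did not. Lpl rose by 1.34 ± 0.18 at 200 µM (adjusted p = 0.000137), by 1.54 ± 0.18 at 400 µM (4.86e-05) and by 0.65 ± 0.18 under IFN-γ (0.00935). Its difference under IL-4 was 0.03 ± 0.18 (adjusted p = 0.933). At 400 µM it was higher than under IL-4 (1.51 ± 0.18, adjusted p = 2.27e-05) and than under IFN-γ (0.88 ± 0.18, 0.00122). The last of these had an adjusted p of 0.0827 with only the 6 libraries compared and the replicate number as a block.

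Angptl4 encodes a secreted protein that inactivates lipoprotein lipase (chr17:33773750-33781830, minus strand). It moved with Lpl under heme-albumin and against it under IFN-γ. Angptl4 was read only 14 to 33 times per library in controls, at 1.87, 2.16 and 1.66 CPM. It reached 5.72, 8.50 and 5.50 CPM at 200 µM and 7.36, 10.5 and 7.28 CPM at 400 µM. Under IL-4 it stood at 1.51, 1.58 and 1.82 CPM, and under IFN-γ at 0.419, 0.934 and 0.366 CPM, from 7, 21 and 6 reads. All 6 heme-albumin libraries were above the controls and all 3 IFN-γ libraries below them. Angptl4 rose by 1.99 ± 0.30 at 200 µM (adjusted p = 0.000397) and by 2.32 ± 0.30 at 400 µM (0.000106), and its log2 fold change under IFN-γ was -1.50 ± 0.35 (0.00395). Under IL-4 the difference was -0.11 ± 0.31 (adjusted p = 0.841). The gap between 400 µM heme-albumin and IFN-γ was 3.82 ± 0.33 (adjusted p = 8.64e-07).

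Cd36 encodes the scavenger receptor that takes up long-chain fatty acids and oxidised lipoproteins (chr5:17781690-17888801, minus strand). It rose under all 4 treatments. The controls stood at 1212, 1079 and 1132 CPM. Cd36 stood at 2449.7, 4013 and 3054 CPM at 200 µM heme-albumin and at 3227, 6979 and 3989 CPM at 400 µM. It stood at 3669.5, 2589.5 and 3375 CPM under IL-4 and at 2724.5, 2285 and 2269.6 CPM under IFN-γ. No treated library fell into the control range, and replicate 2 at 400 µM, one of the libraries that stood apart, was the highest of all 15. The log2 fold changes were 1.69 ± 0.28 (adjusted p = 0.000774), 2.27 ± 0.29 (8.17e-05), 1.61 ± 0.28 (0.000783) and 1.28 ± 0.28 (0.00244) in that order. Without replicate 2 the value at 400 µM was 1.83 ± 0.21 (adjusted p = 0.000110). Against IFN-γ, Cd36 was higher at 400 µM by 0.99 ± 0.28 (adjusted p = 0.0104). That call ended without replicate 2 at 400 µM (0.55 ± 0.21, adjusted p = 0.0558), with only the 6 libraries compared (0.0747), and with those 6 and the replicate number as a block (0.151). Against IL-4 the difference of 0.66 ± 0.27 did not pass (adjusted p = 0.0695), but did in DESeq2 (0.0360) and without replicate 1 at 400 µM (0.0159). Without replicate 2 at 400 µM it was 0.22 ± 0.21 (adjusted p = 0.466).

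Fabp5 and Fabp4 encode fatty acid-binding proteins of the cytoplasm and lie in a cluster on chromosome 3 (chr3:10012548-10016607, plus strand, and chr3:10204088-10208576, minus strand). Of the other 3 genes of the cluster, Pmp2 had no count in any library, and Fabp9 and Fabp12 had 1 count each in all. Pmp2 and Fabp9 share exons with Gm37389 on the same strand, so reads there may not have been counted. Fabp5 was measured at 533, 567 and 454 CPM in controls. It stood at 139.9, 148.8 and 108.2 CPM at 200 µM heme-albumin and at 152.4, 188.5 and 161.9 CPM at 400 µM, all 6 below every control. Under IL-4 it stood at 597.5, 610.9 and 591.9 CPM. Under IFN-γ replicates 1 and 2 stood at 114 and 135 CPM and replicate 3 at 422 CPM, just under the lowest control. Fabp5 fell at 200 µM (-1.76 ± 0.41, adjusted p = 0.00695) and at 400 µM (-1.43 ± 0.40, 0.0195). The call at 400 µM ended without control replicate 2 (adjusted p = 0.0564) and without replicate 1 (0.0595) or replicate 3 (0.0598) at 400 µM. Without both libraries that stood apart, the value at 400 µM was -1.55 ± 0.15 (adjusted p = 1.10e-05). Under IL-4 the difference was 0.32 ± 0.39 (adjusted p = 0.590), which passed with only those 6 libraries in the fit (0.31 ± 0.09, 0.0205). Under IFN-γ it was -0.96 ± 0.40 (adjusted p = 0.0652), and -1.93 ± 0.17 without IFN-γ replicate 3 (1.39e-06). That value also passed in DESeq2 (adjusted p = 0.0267) and with upper-quartile scaling (0.0366). Fabp5 was higher under IL-4 than under IFN-γ (1.29 ± 0.40, adjusted p = 0.0161). That difference was 2.25 ± 0.17 without IFN-γ replicate 3 (adjusted p = 1.76e-07), and did not pass without IFN-γ replicate 2 (0.0618) or with only the 6 libraries compared (0.103).

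Fabp4, known as the adipocyte form and also made by macrophages, passed in none of the 4 comparisons with control when all libraries were fitted. Its level in CPM was 37.3, 37.4 and 25.5 in controls, 13.2, 31.4 and 11.4 at 200 µM heme-albumin and 26.5, 34.95 and 28.8 at 400 µM. It was 104.8, 58.4 and 70.6 under IL-4, above every control. Under IFN-γ it was 7.36 and 4.31 in replicates 1 and 2 and 60.8 in replicate 3, so that 2 libraries lay below all controls and 1 above them. The IL-4 difference was 1.33 ± 0.74 (adjusted p = 0.212). It passed with only the 6 libraries compared (1.30 ± 0.22, adjusted p = 0.00124) and without both libraries that stood apart (1.31 ± 0.33, 0.00718). The IFN-γ difference was -0.20 ± 0.74 (adjusted p = 0.843) with replicate 3 and -2.42 ± 0.44 (0.000711) without it. At 200 µM it was -0.62 ± 0.75 (adjusted p = 0.584), which passed with only the 6 libraries and the replicate number as a block (-0.73 ± 0.21, 0.0210). At 400 µM it was 0.05 ± 0.75 (adjusted p = 0.974).

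Acsl1 encodes an acyl-CoA synthetase, the enzyme that activates long-chain fatty acids (chr8:46471037-46536051, plus strand). It was raised by IFN-γ alone among the 4 treatments. The controls stood at 67.5, 66.3 and 63.0 CPM, and the IFN-γ libraries at 364, 204 and 1683 CPM. All 3 IFN-γ libraries lay above the controls, and replicate 3 was far above the other 2. Acsl1 stood at 47.5, 53.4 and 49.1 CPM at 200 µM heme-albumin, 62.5, 58.1 and 61.1 CPM at 400 µM and 45.6, 49.1 and 47.5 CPM under IL-4. These 9 libraries were all below the lowest control in plain CPM. With TMM scaling the mean at 400 µM was above that of the controls (63.0 and 59.5 CPM). The IFN-γ log2 fold change was 3.78 ± 0.61 (adjusted p = 0.000269), and 2.23 ± 0.17 without replicate 3 (2.55e-07). The IL-4 difference was -0.35 ± 0.55 (adjusted p = 0.680), and -0.37 ± 0.07 with only the 6 libraries compared, where it passed (0.00222). At 200 and 400 µM it was -0.18 ± 0.55 (adjusted p = 0.840) and 0.08 ± 0.55 (0.936). A putative transcript on the other strand, Gm45244, shares exon sequence with Acsl1, so its reads are uncertain where strand was not used in counting.

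**Figure D3:**
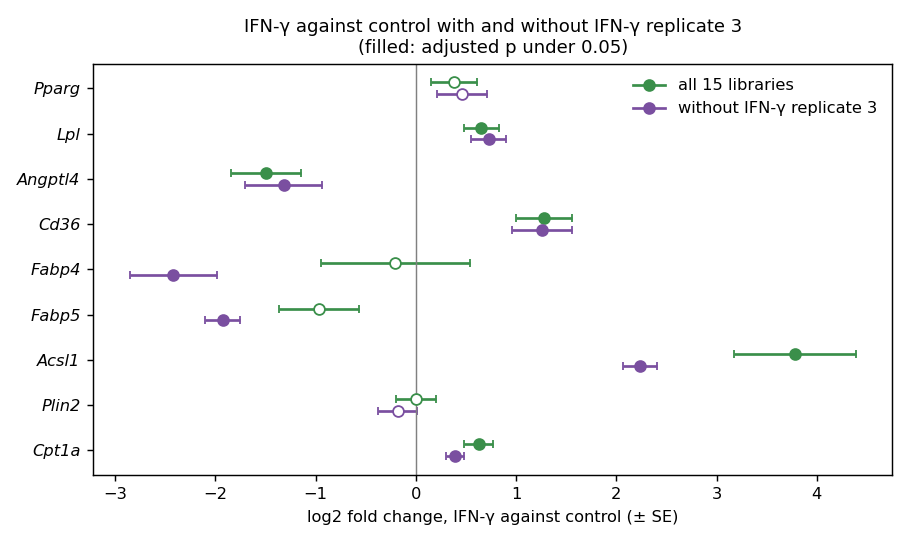
Log2 fold change of the 9 genes under IFN-γ against control (horizontal axis, edgeR ± SE) with all 15 libraries and without IFN-γ replicate 3; filled points have an adjusted p under 0.05. Fabp4 moved from -0.20 to -2.42, Fabp5 from -0.96 to -1.93 and Acsl1 from 3.78 to 2.23, while Cd36 moved only from 1.28 to 1.26 and Lpl from 0.65 to 0.73.

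Plin2 encodes perilipin 2, the coat protein of lipid droplets in most cells other than fat cells (chr4:86648386-86670060, minus strand). It rose under heme-albumin. The controls stood at 733, 714 and 693 CPM. Plin2 stood at 1049.6, 1596 and 1079.9 CPM at 200 µM, and at 1666.5, 2261 and 1672 CPM at 400 µM. All 6 libraries lay above the controls and the 2 doses did not overlap. Under IL-4 it stood at 772, 804 and 766 CPM, above the controls by little, and under IFN-γ at 566, 587 and 709 CPM, overlapping them. Plin2 rose by 1.01 ± 0.20 at 200 µM (adjusted p = 0.00254) and by 1.59 ± 0.20 at 400 µM (8.70e-05). The IL-4 difference was 0.24 ± 0.20 (adjusted p = 0.3997), which passed with only the 6 libraries compared (0.23 ± 0.07, 0.0187). Under IFN-γ it was 0.00 ± 0.20 (adjusted p = 0.999). At 400 µM Plin2 was higher than under IL-4 (1.35 ± 0.20, adjusted p = 0.000148) and than under IFN-γ (1.59 ± 0.20, 2.92e-05).

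Cpt1a encodes the carnitine palmitoyltransferase of the outer mitochondrial membrane, the gate to fatty acid oxidation (chr19:3322334-3385733, plus strand). Like Cd36 it rose under all 4 treatments. The controls were close together at 105.3, 106.9 and 108.0 CPM. Cpt1a stood at 180.8, 195.1 and 207.8 CPM at 200 µM heme-albumin, at 245.0, 206.8 and 221.1 CPM at 400 µM, at 147.2, 157.7 and 144.1 CPM under IL-4 and at 130.7, 125.3 and 172.3 CPM under IFN-γ. Every treated library was above every control. The log2 fold changes were 1.07 ± 0.14 (adjusted p = 0.000130), 1.27 ± 0.14 (3.90e-05), 0.60 ± 0.14 (0.00588) and 0.62 ± 0.14 (0.00303). Without IFN-γ replicate 3, its highest IFN-γ library, the last value was 0.39 ± 0.09 (adjusted p = 0.00387), and with 6 libraries and the replicate number as a block it did not pass (0.56 ± 0.15, 0.0512). At 400 µM Cpt1a was higher than under IL-4 (0.67 ± 0.14, adjusted p = 0.00195) and than under IFN-γ (0.64 ± 0.14, 0.00224). The comparison with IFN-γ did not pass with only the 6 libraries compared (adjusted p = 0.0519).

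Between the doses, none of the 9 genes passed, and 0.00% of all genes tested did in either direction. By edgeR at an unadjusted p under 0.05, 745 genes were higher and 1051 lower at 400 µM, Pparg and Plin2 among the higher. DESeq2 called 3 genes higher and 10 lower. The 9 differences were all above 0, from 0.19 ± 0.18 (Lpl) to 0.67 ± 0.76 (Fabp4), where the median of all genes tested was 0.005. They come from the same 6 libraries, so their signs are not independent. Plin2 (0.58 ± 0.20, adjusted p = 0.292) passed with only the 6 libraries compared and the replicate number as a block (0.60 ± 0.09, 0.0160). For Cd36 the difference was 0.58 ± 0.27 (adjusted p = 0.332), and 0.14 ± 0.21 without replicate 2 at 400 µM.

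Set directly against IL-4, 400 µM heme-albumin gave higher Angptl4, Lpl, Plin2 and Cpt1a, and lower Pparg and Fabp5 (-1.75 ± 0.41, adjusted p = 0.00387). These 4 higher and 2 lower genes stand beside 20.5% and 19.7% of all genes, 40.2% together. Against IFN-γ it gave higher Angptl4, Plin2, Lpl, Cpt1a and Cd36 and lower Acsl1 (-3.70 ± 0.61, adjusted p = 0.000258), beside 20.6% and 22.3% of all genes, 42.9% together. Without IFN-γ replicate 3 the Acsl1 value was -2.15 ± 0.17, Fabp4 joined the higher genes (2.46 ± 0.44, adjusted p = 0.000551), and Fabp5 turned from -0.46 ± 0.40 (0.371) to 0.50 ± 0.16 (0.0256). IL-4 against IFN-γ gave higher Pparg, Angptl4 (1.39 ± 0.34, adjusted p = 0.00392) and Fabp5, and lower Acsl1 (-4.14 ± 0.62, 8.97e-05) and Lpl (-0.63 ± 0.18, 0.00923), beside 24.3% and 26.3% of all genes, 50.6% together. Without IFN-γ replicate 3 the Acsl1 difference was -2.59 ± 0.17, and Fabp4 was also higher under IL-4 (3.74 ± 0.45, adjusted p = 1.31e-05). The Lpl call ended with only the 6 libraries compared (adjusted p = 0.0667).

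The wider pathway is given by lists of related genes, with counts read against the share of all genes given above. Among 14 tested receptors, retinoid X receptor partners and coregulators, 6 rose and 2 fell at 200 µM, 3 and 1 at 400 µM, 4 and 2 under IL-4, and 9 and 0 under IFN-γ. Ppard, the gene of PPAR-delta, rose in all 4, from 13.8 ± 1.2 CPM (SD, n = 3) in controls to 31.4 ± 8.0, 22.5 ± 3.9, 23.1 ± 1.5 and 36.6 ± 5.6 CPM. Its log2 fold changes were 1.39 ± 0.21, 0.90 ± 0.21, 0.85 ± 0.21 and 1.60 ± 0.21 (adjusted p = 0.000417, 0.00753, 0.00839 and 5.34e-05). Rxra, a retinoid X receptor gene, stood at 75 ± 16 CPM in controls and rose at 200 µM (0.74 ± 0.24, adjusted p = 0.0385), but did not pass in the other 3 comparisons. Ppara had 1 count in 1 IL-4 library, and Rxrg and Ppargc1a had none. Cebpa, a transcription factor that works with PPAR-gamma in fat cells, rose at both heme-albumin doses (2.04 ± 0.29 and 1.72 ± 0.29) and under IL-4 (1.79 ± 0.29), with adjusted p = 0.000230, 0.000735 and 0.000419. Ppargc1b, a coactivator known for driving mitochondrial genes, rose under IL-4 (1.97 ± 0.27, adjusted p = 0.000144) and IFN-γ (2.52 ± 0.28, 1.08e-05). The coactivator gene Ncoa3 fell at both doses (-1.01 ± 0.15 and -1.24 ± 0.15, adjusted p = 0.000406 and 7.94e-05), and Ncoa1 rose under IFN-γ (1.09 ± 0.09, 5.85e-07). With 1 library left out in turn, the count that rose was 3 to 5 at 200 µM (3 without control replicate 1 or replicate 2 at 200 µM), and 7 to 9 under IFN-γ. The count that fell was 1 to 4 at 200 µM and 0 to 2 under IL-4. Without both libraries that stood apart, 7 genes rose and 3 fell under IL-4, and 5 genes fell at 200 µM.

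**Figure D4:**
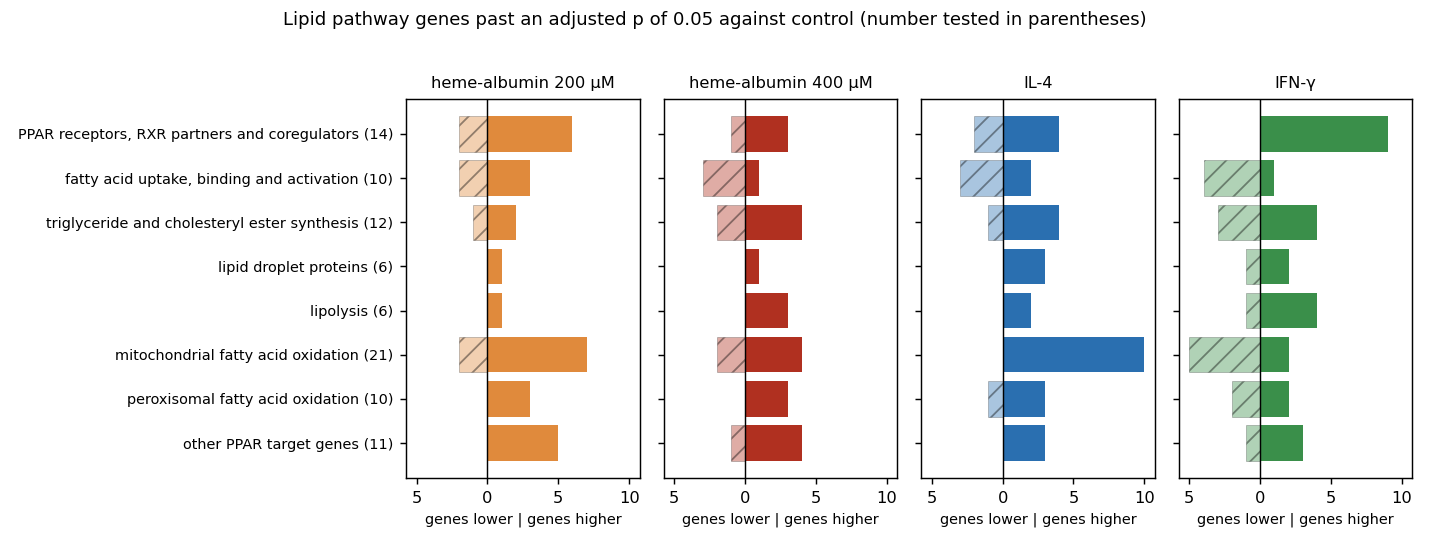
Number of genes past an adjusted p of 0.05 in 8 lipid pathway lists (rows, number tested in parentheses) in 4 comparisons with untreated macrophages; solid bars to the right count genes that rose and hatched bars to the left genes that fell. Mitochondrial fatty acid oxidation under IL-4 had 10 genes to the right, and receptors and coregulators under IFN-γ had 9.

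Among 10 tested genes of fatty acid uptake, binding and activation, 3 rose and 2 fell at 200 µM, 1 and 3 at 400 µM, 2 and 3 under IL-4 and 1 and 4 under IFN-γ. Acsl3, a second acyl-CoA synthetase, moved against Acsl1 under IFN-γ: it fell there (-2.84 ± 0.37, adjusted p = 4.57e-05) and at 200 and 400 µM (-1.62 ± 0.35, 0.00456, and -1.89 ± 0.36, 0.00170). Fabp7, a further fatty acid-binding protein, rose in the same 3 comparisons (1.79 ± 0.37, 2.19 ± 0.37 and 2.10 ± 0.37, adjusted p = 0.00169, 0.000925 and 0.00116), from 1.93 ± 0.39 CPM in controls to between 5.95 and 7.66 CPM. Under IL-4 Fabp7 was among the genes that fell (-1.23 ± 0.42, adjusted p = 0.0446). With 1 library left out in turn, the IL-4 counts were 0 to 1 in each direction, 1 to 2 rose at 200 µM (1 without any but replicate 3 at 200 µM), 1 to 2 fell at 400 µM and 2 to 3 fell under IFN-γ. Acsl4 stood at 175 ± 15 CPM in controls and 114.4 ± 5.6 CPM under IL-4 (-0.50 ± 0.16, adjusted p = 0.0323), a call that ended without any 1 of the IL-4 libraries (0.0595 to 0.106). Acsl5, at 246 ± 23 CPM in controls, passed in none of the 4 comparisons. Vldlr, a lipoprotein receptor, fell at 200 µM (-2.31 ± 0.62, adjusted p = 0.0155). That call ended without control replicate 3 (adjusted p = 0.0611) and without replicate 1 (0.0667) or replicate 2 (0.0705) at 200 µM.

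Of 12 tested genes of triglyceride and cholesteryl ester synthesis, 2 rose and 1 fell at 200 µM, 4 and 2 at 400 µM, 4 and 1 under IL-4 and 4 and 3 under IFN-γ. The 4 that rose at 400 µM were 0 without control replicate 1 or control replicate 2. With 1 library left out, 1 rose at 200 µM, 2 to 4 rose under IL-4 and 1 to 2 fell under IFN-γ, and without both libraries that stood apart 5 rose at 200 µM. Lpin1, a lipin that makes the diglyceride precursor of triglycerides, fell at 200 µM, 400 µM and under IFN-γ (-1.33 ± 0.17, -1.26 ± 0.17 and -1.49 ± 0.17) and rose under IL-4 (0.78 ± 0.17). Its adjusted p-values were 0.000123, 0.000177, 1.73e-05 and 0.00316. Lpin2 went the other way under both cytokines, and fell under IL-4 (-0.88 ± 0.15, adjusted p = 0.000564) and rose under IFN-γ (1.66 ± 0.15, 1.52e-06). Soat2, a cholesterol-esterifying enzyme, rose under IFN-γ (3.18 ± 0.65, adjusted p = 0.00155), and its relative Soat1 rose under IL-4 (0.89 ± 0.23, 0.0107), IFN-γ (0.79 ± 0.23, 0.0136) and at 400 µM (0.71 ± 0.23, 0.0360). Dgat2, which completes triglycerides, stood at 0.322 ± 0.175 CPM in controls and at 1.01 ± 0.43 CPM at 200 µM (1.96 ± 0.45, adjusted p = 0.00638). Dgat1, the other enzyme of that step, stood between 10.9 and 13.5 CPM in all 5 group means and passed in no comparison with control.

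Of the other lipid droplet proteins, 6 of 12 had enough counts to test, and Plin1, Plin4, Plin5, Cidea and Cidec were at or near 0 everywhere. One of the 6 rose at each dose, 3 under IL-4 and 2 under IFN-γ, where 1 fell. Hilpda, a droplet protein that restrains lipolysis, stood at 7.5 ± 1.3 CPM in controls and 14.97 ± 7.77 CPM at 400 µM, which did not pass (adjusted p = 0.0684). Plin3 rose under IL-4 (0.75 ± 0.12, adjusted p = 0.000445) and Ldah fell under IFN-γ (-0.35 ± 0.10, 0.0110). Fitm2, which helps droplets bud, was the gene that rose at 200 µM (0.56 ± 0.14, adjusted p = 0.0101) and 400 µM (0.54 ± 0.14, 0.0117), but not without control replicate 2 (0.0694 and 0.0709). Under IL-4 its call (0.41 ± 0.14, adjusted p = 0.0395) ended without any 1 of the 6 libraries compared (0.0527 to 0.214) and in DESeq2 (0.0505). Bscl2, the seipin gene, lost its IL-4 call (0.45 ± 0.15, adjusted p = 0.0345) without any 1 of those 6 but IL-4 replicate 1. The IL-4 count was thus 1 to 2 with 1 library left out. The 2 that rose under IFN-γ, Bscl2 and Cideb, did not pass without IFN-γ replicate 3 (adjusted p = 0.121 and 0.0600). In lipolysis, the release of stored fat, 1 of 6 tested genes rose at 200 µM, 3 at 400 µM, 2 under IL-4 and 4 under IFN-γ, where 1 fell. Pnpla2, the first triglyceride lipase of the droplet, rose in all 4 comparisons (1.02 ± 0.20, 0.87 ± 0.20, 0.94 ± 0.20 and 1.35 ± 0.20, adjusted p = 0.00254, 0.00632, 0.00334 and 0.000148). Its coactivator Abhd5 fell under IFN-γ (-0.76 ± 0.09, adjusted p = 3.55e-05). G0s2, which inhibits Pnpla2, stood at most at 0.708 CPM in any group mean. Mgll, the monoglyceride lipase, rose under IL-4 from 1.28 ± 0.05 to 12.6 ± 7.3 CPM (3.40 ± 0.59, adjusted p = 0.000790).

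All 21 genes of mitochondrial fatty acid oxidation were tested. Under IL-4, 10 rose and 0 fell, with a median log2 fold change of 0.33 over the 21. At 200 µM 7 rose and 2 fell, at 400 µM 4 and 2, and under IFN-γ 2 and 5. With 1 library left out in turn, 6 to 7 rose under IL-4 and 3 to 5 at 200 µM, the lowest at 200 µM being without control replicate 1. At 400 µM the count that rose was 2 without control replicate 1 or 3. Acads (0.94 ± 0.17, adjusted p = 0.000975), Etfb (0.61 ± 0.10, 0.000733) and Hadha (0.44 ± 0.08, 0.00154), enzymes or electron carriers of the oxidation cycle, rose under IL-4. Etfb fell under IFN-γ (-0.53 ± 0.11, adjusted p = 0.00148), as did Acadm (-0.47 ± 0.10, 0.00241). Cpt2, the partner of Cpt1a inside mitochondria, stood at 22.6 ± 1.7 CPM in controls and passed in none of the 4 comparisons. Slc25a20, the carnitine carrier between them, rose at 200 µM (0.74 ± 0.13, adjusted p = 0.00123) and 400 µM (0.86 ± 0.13, 0.000358). Acadvl, the first dehydrogenase for very long chains, rose at both doses and under IFN-γ (0.82 ± 0.11, 0.65 ± 0.11 and 0.57 ± 0.11, adjusted p = 0.000108, 0.000653 and 0.000825). Echs1, a hydratase of the same cycle, fell at both doses (-0.81 ± 0.11 and -0.86 ± 0.11, adjusted p = 0.000147 and 8.24e-05).

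Of 10 peroxisomal genes, 3 rose and 0 fell at each dose, 3 and 1 under IL-4 and 2 and 2 under IFN-γ. With 1 library left out, 1 to 2 rose at 200 µM and under IL-4, and 2 to 4 at 400 µM. Abcd2, a peroxisomal importer of fatty acids, rose at 200 µM (1.09 ± 0.12, adjusted p = 2.37e-05), at 400 µM (1.01 ± 0.12, 4.72e-05) and under IL-4 (2.20 ± 0.12, 6.77e-08), from 11.4 ± 0.7 CPM in controls to 48.4 ± 2.0 CPM under IL-4. Pex11a rose at 400 µM (1.30 ± 0.25, adjusted p = 0.00177) and under IFN-γ (1.70 ± 0.24, 0.000102). It also passed at 200 µM (0.73 ± 0.25, adjusted p = 0.0459), but not with the replicate number as a block (0.0561) or in 8 other alternatives. Among 11 tested genes of a further list of PPAR targets, some of which are also in the oxidation lists, 5 rose and 0 fell at 200 µM, 4 and 1 at 400 µM, 3 and 0 under IL-4 and 3 and 1 under IFN-γ. With 1 library left out in turn, the count that rose was 2 to 4 at 200 µM and 2 under IL-4. Tsc22d1 rose at 400 µM (1.08 ± 0.19, adjusted p = 0.000917) and under IL-4 (1.11 ± 0.18, 0.000551), and Gpd1, the glycerol phosphate dehydrogenase, under IL-4 (2.45 ± 0.40, 0.000548). Cyp27a1, which oxidises cholesterol, rose under IFN-γ (0.71 ± 0.14, adjusted p = 0.00151). The textbook target Pdk4 was read at most at 0.110 CPM. Exons of Abhd5, Acadvl, Acsl3, Acsl5, Bscl2, Cebpa, Cideb, Echs1, Etfb, Fabp9, Fitm2, Gpd1, Hadha, Mgll, Ncoa1, Ncoa3, Plin4, Pmp2, Irf1, Acp5 and Clec9a overlap those of another gene, so the counts of these genes are uncertain.

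Across the 15 libraries the 9 genes did not form one pattern. Pearson's r of log2 CPM, given as a description over libraries that share their groups, was highest for Plin2 with Angptl4 (0.89), Plin2 with Cpt1a (0.84) and Cd36 with Cpt1a (0.83). Fabp4 and Fabp5 had an r of 0.78, and Fabp5 with Lpl -0.80. Pparg had an r of 0.27 with Cd36 and -0.17 with Plin2. Likeness was ranked among tested genes with a mean of at least 1 CPM, leaving out predicted genes. The pattern of Pparg was most like that of Lat, Dlg3 and Pdcd1lg2 (r = 0.94 each). Plin2 was most like Gclc (0.98), the glutathione synthesis enzyme, then Afg3l2 (0.98) and Armcx4 (0.97). Angptl4 was most like Bri3bp, Syn1 and Gipc2 (0.99 each), Lpl like Tmigd3 (0.96), Slc37a2 (0.95) and Adora3 (0.95), and Cd36 like Dcun1d3 (0.95), Coq10b (0.95) and Ahcyl2 (0.94). Cpt1a was most like Plpp3 (0.97), Clcf1 (0.96) and Wipi2 (0.95), Fabp4 like Sestd1 (0.92), Cstb (0.92) and Hvcn1 (0.90), and Fabp5 like Il10rb (0.95), Zfp704 (0.94) and Galc (0.93). Acsl1 was most like Ubd (0.99), Lrrc8c (0.99) and Agtrap (0.99), values that IFN-γ replicate 3 can set.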

How the data were processed

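RNA sequencing libraries of mouse bone marrow-derived macrophages were compared in 5 groups of 3, using the table of raw read counts per gene that the authors deposited. Per the labels' protocols, RNA was extracted with on-column DNase treatment and sequenced from a stranded mRNA kit. Per the submitters' processing notes, STAR 2.7.0e, SAMtools 1.9, featureCounts and the build GRCm38.p5 were used. For the annotation and the strand setting, nothing is given in the sources used here. The characteristics of the 400 µM replicates read 400, 401 and 402 µM, while titles and protocol give 400 µM, which was used.

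Of 25700 gene identifiers, 25587 matched GENCODE M21, the source of names, coordinates and lengths, and 113 did not. edgeR 4.0.16 (R 4.3.3) fitted all 15 libraries with TMM factors (0.886 to 1.12). Its expression filter left 11883 genes, and each of 8 comparisons was tested by the quasi-likelihood test with Benjamini-Hochberg adjustment over all genes tested, at 0.05. The member genes and the pathway lists were chosen with earlier results of these data known. Named list genes are up to 3 per list and comparison with the smallest p among those past the threshold, plus a fixed group of well-known pathway genes.

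The count columns carry a date for each replicate number, shared by all groups, which is where the pairing comes from; what a date marks is not given. Over 30 same-numbered pairs of libraries in different groups, deviations from the group means correlated at a median r of 0.144 (-0.168 to 0.474), against -0.0688 over 60 other pairs.

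Alternatives were edgeR with upper-quartile factors or with the size factors of DESeq2, DESeq2 1.42.0 itself, no filter (16436 genes), at least 5 CPM in 3 libraries (10286 genes), only the 6 libraries compared, the replicate number as a block, and each library left out in turn. Chosen after seeing the data were the fit without both libraries that stood apart and the block with only 6 libraries. The fit was tested on simulated data. Likeness used log2 CPM with a prior count of 2 and left out predicted genes (Gm, Rik and accession-like names).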

Additional observations from a re-analysis of the deposited data

How the results depend on the processing

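All values here come from the same counts. Of the member fold changes refitted under the alternatives, 1005 kept direction and side of the threshold, 29 newly passed, 15 no longer passed and 30 changed sign, and the cause was not tested. With the replicate number as a block and all 15 libraries, no member's call changed; Pex11a lost its call at 200 µM, as given above. The fits of only 6 libraries have fewer samples. At 200 µM, 2 members were lower with 6 libraries and the block, and all genes higher numbered 2511 there and 1003 to 1396 with 1 library left out. All genes lower at 200 µM numbered 2152 with 6 libraries, 2425 with the block as well, 1958 without both libraries that stood apart and 650 to 934 with 1 left out. At 400 µM, 0 to 1 members were lower with 1 left out, and Fabp4 was -0.12 without control replicate 3, -0.11 without replicate 2 at 400 µM and -0.10 without both, in a range of -0.12 to 0.15 with 1 left out. Under IL-4, 6 members were higher and 1 lower with 6 libraries, with or without the block. All genes higher under IL-4 numbered 3303 with 6 libraries and the block and 1180 to 1358 with 1 left out, and all lower 2515 with 6 libraries, 3249 with the block as well, 2188 without both and 1014 to 1183 with 1 left out. Lpl under IL-4 was -0.00299 with 6 libraries and the block, and -0.083 to 0.19 with 1 left out (-0.000434 and -0.054 without control replicates 1 and 3, -0.059 without IL-4 replicate 3). Under IFN-γ, 2 members were lower with upper-quartile factors and in DESeq2, 3 without both, and 1 to 3 with 1 left out. Plin2 under IFN-γ, near 0, was -0.0234 with DESeq2 size factors and in DESeq2, -0.11 with upper-quartile factors, -0.00656 with no filter, -0.038 with 6 libraries, -0.055 with 6 libraries and the block, -0.000420 with the replicate block, -0.027 without control replicate 3, -0.18 without IFN-γ replicate 3 or both, and at most 0.10 with 1 left out. Fabp4 under IFN-γ was 0.24 and 0.31 without IFN-γ replicates 1 and 2 and -2.42 without replicate 3. Between doses, 1 member was higher with 6 libraries and the block, where 147 genes were higher and 97 lower. DESeq2 gave 3 higher and 10 lower there, and 1 gene was lower without both. Against IFN-γ, 400 µM gave 3 higher members with 6 libraries, 2 with the block as well and 4 to 7 with 1 left out. All genes were then 1268 and 959 higher and 1473 and 1079 lower with 6 libraries without and with the block. In that comparison Pparg was -0.046 to 0.30 with 1 left out, lowest without replicate 2 at 400 µM and -0.12 without both, Fabp4 -0.20, -0.27 and 2.46 without IFN-γ replicates 1, 2 and 3, and Fabp5 -0.81 without IFN-γ replicate 1, 0.50 without replicate 3 and 0.38 without both. IL-4 against IFN-γ gave 5 higher members without both, 2 to 4 with 1 left out, and 1 lower with 6 libraries, with or without the block. Cpt1a there was 0.070 with upper-quartile factors, 0.21 without IFN-γ replicate 3 or both, -0.14 without IFN-γ replicate 2, and 0.000996 with 6 libraries and the block. The order of the 5 group means was kept for 3 of 9 genes with TMM-scaled CPM and 4 of 9 with DESeq2 size factors, and for 6 to 9 with 1 library left out. Among named pathway genes, 12 of 18 calls at 200 µM, 15 of 20 at 400 µM, 15 of 23 under IL-4 and 19 of 22 under IFN-γ passed in every alternative, and none changed sign. At these depths Angptl4 under IFN-γ (6 to 21 reads a library) is among the least precisely counted members.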

Other observations

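Adipoq, the gene of the adipocyte hormone adiponectin, was read in the IL-4 libraries. It had 10, 3 and 15 reads there (0.627, 0.163 and 0.525 CPM) and 0 in the other 12 libraries. Of the other 7 adipocyte markers, Slc2a4 had 3, 1 and 3 reads and Retn 1, 1 and 0 in the same 3 libraries, and Lep, Cidec, Cfd, Plin1 and Adrb3 had 0.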
